A study of Homo sapiens with 6 samples.

Results

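The genes described here are 10 regulators of the step from G1 to S phase: 7 inhibitors of cyclin-dependent kinases (CDKN1A, CDKN1B, CDKN1C, CDKN2A, CDKN2B, CDKN2C and CDKN2D), the kinases CDK4 and CDK6, and the pocket protein gene RB1. They were chosen by symbol, and each symbol matched 1 of the 63677 Ensembl gene IDs in the files. Together they have 70 of the 215170 annotated transcripts. KMS27 is an established human myeloma cell line, that is, malignant plasma cells. Total RNA of KMS27 was sequenced in 6 libraries, 3 labelled wild type and 3 labelled HA-TAZ, meaning overexpression of TAZ with an HA tag. TAZ, the product of WWTR1, is a transcriptional coactivator at the end of the Hippo pathway that binds DNA through TEAD factors. No drug, time course or further allele is given in the labels, and neither the promoter of the construct nor whether the HA-TAZ cells are a clone is stated. HA also stands in the sample titles of the wild type group, and scr, the prefix of the remaining data columns, occurs nowhere in the labels. By elimination the scr columns were read as wild type, and the letters a, b and c name them below (control a and so on).

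In textbook terms, CDK4 and CDK6 bind D cyclins and phosphorylate the retinoblastoma protein, which releases E2F factors and lets S phase genes be transcribed. The INK4 inhibitors (CDKN2A to CDKN2D) bind CDK4 and CDK6 alone, and the Cip/Kip inhibitors (CDKN1A to CDKN1C) bind a wider range of cyclin and kinase complexes. CDKN2A also encodes ARF, a different protein read from its own upstream first exon. In myeloma this step is often altered, through raised D cyclins or through loss of RB1 or of INK4 genes.

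The sequences upstream of CDKN2B, CDKN2A and CDK6 are shown because CDKN2B and CDK6 had the smallest p-values of the members and CDKN2A the highest level, a choice made after the values were seen. They come from RefSeq on build GRCh38.p14, which held promoter windows for 9 of the 10 members, each from 250 bases before to 50 bases after a start. Only the bases before every annotated start are printed, 5′ to 3′ on the minus strand on which all 3 genes lie. Capitals mark TEAD words (GGAATG) and GC boxes (GGGCGG), each searched on both strands.
CDKN2B, chr9:22009364-22009555: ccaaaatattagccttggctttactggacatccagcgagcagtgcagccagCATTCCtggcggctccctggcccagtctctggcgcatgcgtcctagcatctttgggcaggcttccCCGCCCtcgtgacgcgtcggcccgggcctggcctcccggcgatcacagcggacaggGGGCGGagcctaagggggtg
CDKN2A, upstream start used by ARF, chr9:21995325-21995574: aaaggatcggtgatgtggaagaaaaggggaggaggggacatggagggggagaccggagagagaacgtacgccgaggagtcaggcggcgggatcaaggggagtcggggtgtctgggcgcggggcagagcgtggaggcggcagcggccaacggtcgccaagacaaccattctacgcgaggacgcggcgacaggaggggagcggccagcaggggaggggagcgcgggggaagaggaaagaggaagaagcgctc
CDK6, chr7:92836595-92836823: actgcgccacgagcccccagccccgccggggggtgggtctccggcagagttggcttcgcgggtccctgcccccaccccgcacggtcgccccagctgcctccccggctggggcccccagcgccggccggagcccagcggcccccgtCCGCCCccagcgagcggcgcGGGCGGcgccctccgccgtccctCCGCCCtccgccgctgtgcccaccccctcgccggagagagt

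The 192 bases of CDKN2B held 1 TEAD word, which 9.41% of the 35116 promoters in the table hold in a window of this length. They also held 2 GC boxes, a word that at least once is in 33.4% of promoters. The 229 bases of CDK6 held 3 GC boxes and no TEAD word, against shares of 39.8% and 11.1% of all promoters. The 250 bases of CDKN2A held no word of either kind, with shares of 42.6% and 11.9%. The E2F words TTTCCCGC and TTTGGCGC (shares of 1.43% to 1.93%) and the E box CACGTG (4.18% to 6.34%) were in none of the 3 windows. These counts describe letters only.

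Levels are in TPM, which divides reads by transcript length and states each transcript as a share of its library. TPM states shares, so libraries were also rescaled by a median-of-ratios factor, and scaled TPM below means TPM divided by that factor. The factors ranged from 0.866 to 0.967 in HA-TAZ and from 1.06 to 1.21 in control libraries, so a gene with equal TPM in both groups is higher in HA-TAZ libraries in scaled TPM. Over all tested genes, scaling moved the median log2 fold change from −0.27 to −0.03. Of 22651 genes with a mean of at least 1 TPM, 4.67% were called higher and 2.63% lower in HA-TAZ libraries (limma with Benjamini-Hochberg adjustment over all genes, as throughout, adjusted p under 0.05), so 64.0% of calls were higher. That share was 7.84% with TPM as deposited and 43.4% with a factor from protein-coding genes alone. WWTR1 was at 293, 306 and 293 TPM with HA-TAZ, against 2.69, 2.22 and 1.69 TPM in controls, as the labels state. All 10 plasma cell markers were above 1 TPM, with CD38, SDC1 and IRF4 among them, and the 3 mature B cell markers lay between 0.0215 and 0.0629 TPM on average. No marker of T, NK, myeloid, stromal or epithelial cells exceeded a mean of 2.29 TPM. The summed plasma cell markers were at 2825 to 3262 TPM in HA-TAZ and 4308 to 4877 TPM in control libraries, and their part in the results was not tested. IGJ made up most of this sum, with means of 2457 and 3792 TPM. Single markers went both ways: SLAMF7 was called higher (log2 fold change 0.95, adjusted p by limma = 0.0128) and CD38 lower (−0.61, adjusted p by limma = 0.0226), and the other 8 were not called. In bulk RNA, fewer cells that express a gene and less RNA per cell cannot be told apart. No label says that the libraries of a group came from separate cultures, so p-values measure only the spread between libraries, which may be technical.

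The members ranged from among the most abundant protein-coding genes of these cells to none listed. CDKN2A was the highest, above 99.2% of 19376 protein-coding genes by mean TPM over the 6 libraries, followed by CDK4 (96.3%), CDK6 (92.4%), CDKN2C (91.6%) and CDKN2B (68.2%). CDKN2D (48.3%) and CDKN1A (41.1%) were low, and CDKN1C (34.0%) and RB1 (30.8%) were below 1 TPM in every library. CDKN1B was listed at 0 in all 6 libraries. In this order, CDK6 and CDKN2C overlapped in control libraries, and CDKN1C and RB1 overlapped in control libraries as well. The other neighbouring pairs did not overlap within either group. In scaled TPM, 6 of the 7 tested members lay higher with HA-TAZ without overlap, where 20.2% of all tested genes were. The 6 include CDKN1A, which had a control mean of 0.896 TPM and was tested only because of its level in HA-TAZ libraries. With TPM as deposited, CDKN2B alone of the 7 was higher without overlap, and CDKN2C was lower without overlap. The shares of all genes without overlap on that scale were not counted, and the 20.2% holds for scaled TPM only. As deposited, the median log2 fold change of all tested genes was −0.27.

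**Figure D1:**
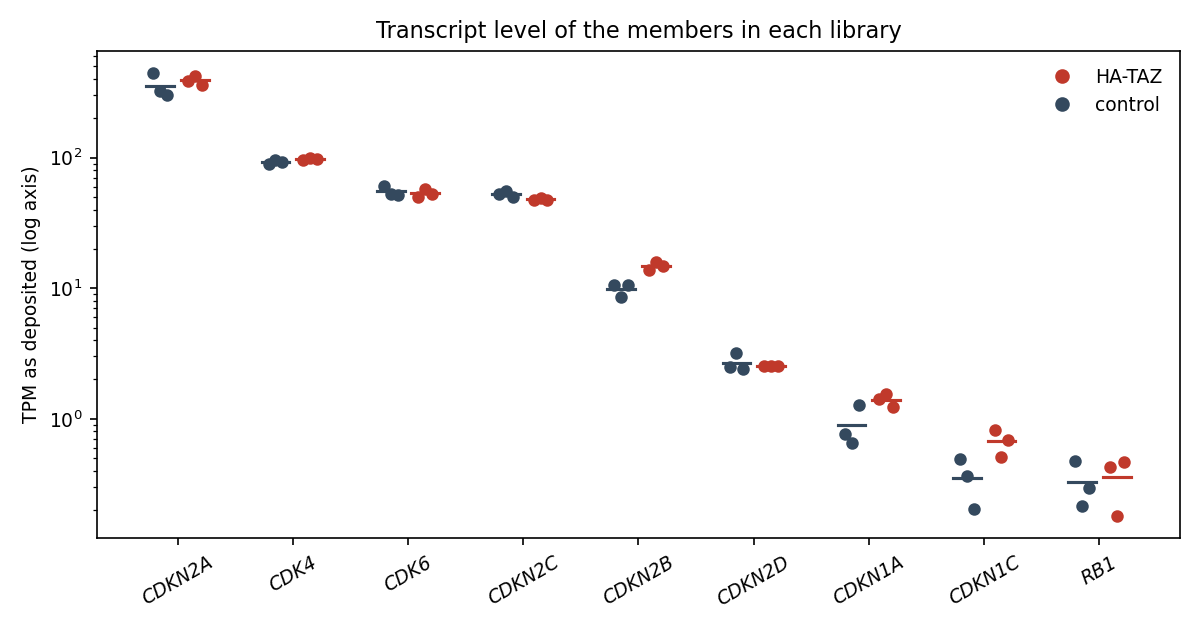
TPM as deposited (log axis) of 9 members, with 1 point per library and a line at the mean of each group (n = 3). CDKN2A lies between 299.8 and 445 TPM and RB1 below 0.48 TPM, and CDKN1B is not drawn because it was listed at 0 in every library.

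Of the 7 members tested, CDKN2B and CDK6 were called higher in HA-TAZ libraries and 0 were called lower, where 4.67% of all tested genes were called higher and 2.63% lower. At an unadjusted p under 0.05 there were 6 higher and 0 lower, where 16.6% of all tested genes were higher and 14.1% lower at that threshold. For the 7 the median log2 fold change was 0.37, compared with −0.03 for all genes tested. CDK6 was at −0.048 on the log2 scale and not called with TPM as deposited, whereas CDKN2B was called on both scales. CDKN1A had a mean of 0.896 TPM in controls and passed the filter on level only through the HA-TAZ libraries. It is counted in the 6 at an unadjusted p under 0.05 and in the median of the 7. The 3 members not tested, CDKN1B, CDKN1C and RB1, were below 1 TPM in each library.

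CDKN2B (ENSG00000147883, chromosome 9) encodes p15INK4b, an INK4 inhibitor known as a target of TGF-beta signalling. Its deposited values were 13.7, 15.9 and 14.8 TPM for HA-TAZ 1 to 3, and 10.6, 8.498 and 10.7 TPM for controls a to c, an order kept below. Every HA-TAZ library lay above every control library. In scaled TPM the means were 16.3 ± 0.434 (SD, n = 3) and 8.88 ± 1.15 (SD, n = 3), again without overlap. The log2 fold change was 0.81 ± 0.10 (SE, adjusted p by limma = 0.0149), and 0.54 with TPM as deposited (adjusted p by limma = 0.0375). The call was lost in 5 of the 6 fits that left out a library, all but that without control c, with adjusted p from 0.0250 to 0.0692 by limma and log2 fold changes from 0.73 to 0.90.

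Of its 4 transcripts, 3 lay higher with HA-TAZ without overlap in scaled TPM, as did 17.0% of all tested transcripts, and 2 of the 3 were called. The longest, ENST00000276925.6 (3911 bases in GENCODE release 29, protein-coding), was at 7.62, 8.19 and 6.91 TPM with HA-TAZ, against 4.75, 4.65 and 4.47 TPM in control libraries. Its log2 fold change was 0.86 ± 0.09 (SE, adjusted p by limma = 0.0270 over 57448 transcripts). The shorter protein-coding transcript ENST00000380142.4 was at 3.38, 4.12 and 4.64 TPM against 1.89, 2.03 and 1.85 TPM, with a log2 fold change of 0.997 (adjusted p by limma = 0.0437). For both, each HA-TAZ library was above each control. These were the only 2 called among the 35 member transcripts tested, where 0.432% of all tested transcripts were called higher, and both lost the call with TPM as deposited and in every fit that left out a library. The transcript with a retained intron, ENST00000579591.1, had a log2 fold change of 0.71 (adjusted p by limma = 0.0838) and did not overlap between groups. The fourth, ENST00000539462.1, ranged from 0.418 to 1.48 TPM in HA-TAZ and from 0.467 to 3.21 TPM in control libraries, with overlap.

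CDKN2B and CDKN2A overlap the antisense gene CDKN2B-AS1 (ANRIL) on the opposite strand. Strand use in the quantification is not given in the sources used here, so the values of these genes are uncertain to that extent. CDKN2B-AS1 (ENSG00000240498) was at 6.27, 7.89 and 7.44 TPM with HA-TAZ, against 12.6, 10.2 and 9.55 TPM in control libraries, lower without overlap. Its log2 fold change of −0.25 did not pass the test (adjusted p by limma = 0.119). DMRTA1, the next protein-coding gene on the other side of CDKN2B, rose by 0.45 on the log2 scale (adjusted p by limma = 0.0374), from 4.09, 3.70 and 3.79 TPM in controls to 4.53, 5.10 and 4.22 TPM. MTAP, a metabolic enzyme gene on the far side of CDKN2A, was at 49.1 to 56.0 TPM in HA-TAZ and 55.4 to 60.6 TPM in control libraries, with overlap. In scaled TPM it was higher with HA-TAZ without overlap, at 56.4 to 57.9 against 50.1 to 54.4. Its log2 fold change of 0.12 did not pass (adjusted p by limma = 0.135).

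The 3 tested genes whose centred log2 values over the 6 libraries lay nearest to those of CDKN2B were GPR55, SNORA47 and SEMA4C. The root mean square differences were 0.06, 0.08 and 0.08 on the log2 scale, among 22650 genes compared. GPR55, a lipid-sensing receptor gene, was at 3.17 ± 0.0894 TPM with HA-TAZ and 1.65 ± 0.371 TPM without it (SD, n = 3 each). SNORA47, a small nucleolar RNA, was at 29.6 ± 4.01 and 19.6 ± 2.75 TPM (SD, n = 3 each). SEMA4C, a semaphorin gene, was at 1.52 ± 0.177 and 0.719 ± 0.134 TPM (SD, n = 3 each), and passed the filter on level only through the HA-TAZ libraries. These 3 genes were picked for a pattern like that of CDKN2B, so their differences between groups follow from that choice.

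**Figure D2:**
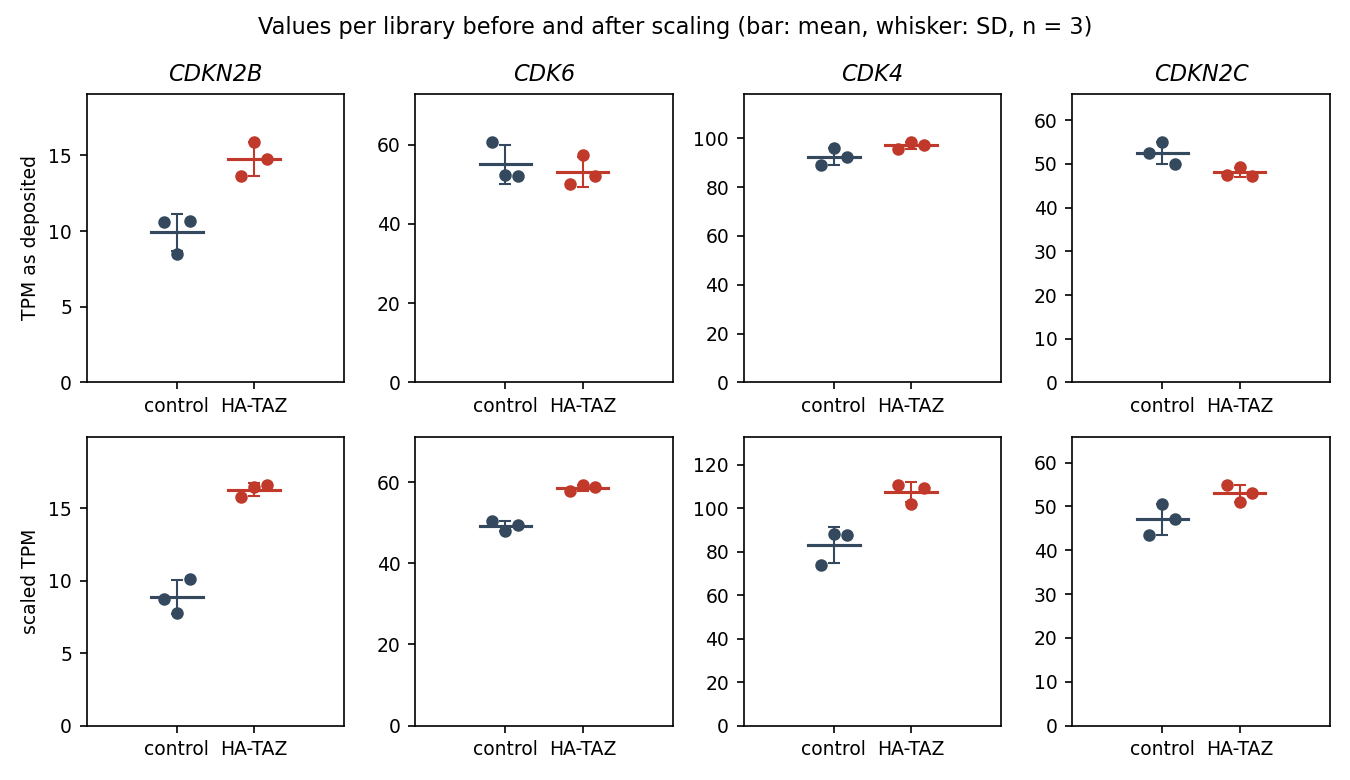
TPM as deposited (upper row) and scaled TPM (lower row) of CDKN2B, CDK6, CDK4 and CDKN2C, with 1 point per library, the mean and the SD (n = 3). CDKN2B is higher in HA-TAZ libraries in both rows, while CDK6 overlaps and CDKN2C is lower as deposited and both are higher after scaling.

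CDKN2A (ENSG00000147889, chromosome 9) encodes p16INK4a and, in another reading frame, ARF. Its deposited values were 388, 421 and 362 TPM with HA-TAZ and 445, 322 and 299.8 TPM in controls. Control a was the highest of all 6 libraries as deposited, and the groups overlapped. In scaled TPM the values were 448, 436 and 407 against 368, 296 and 284, without overlap. The log2 fold change of 0.45 (SE 0.11) did not pass the test (adjusted p by limma = 0.0599). Of 13 alternatives it passed in only 2, without control a (0.56, adjusted p by limma = 0.0285) and with a filter at 5 TPM (adjusted p by limma = 0.0404). It was 0.15 with TPM as deposited (adjusted p by limma = 0.473). In the 6 fits that left out a library, 1 called it (limma, adjusted p from 0.0285 to 0.172).

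CDKN2A has 17 transcripts in the files, of which 3 are not in GENCODE release 29 (GRCh38), and they were grouped by annotated start after their values were seen. Most of the level, 79.8% to 87.5% per library, was assigned to 2 transcripts, ENST00000578845.2 and ENST00000361570.3. ENST00000578845.2 is a model of 678 bases whose annotated start lies downstream of the starts at the ARF and p16INK4a first exons. It was at 208, 240.04 and 151 TPM with HA-TAZ, against 346, 211 and 167 TPM in control libraries, with overlap. ENST00000361570.3, which is among those 3, was at 121, 114 and 138 TPM against 42.7, 58.0 and 77.8 TPM, higher without overlap on both scales. Its log2 fold change was 1.39 (SE 0.27, adjusted p by limma = 0.0785), and the authors' deposited table lists it with an effect (natural log) of 0.987 (q-value 5.11e-04). Control a was the highest library for the former transcript and the lowest for the latter. The models share exons, and how far their values depend on the assignment of shared reads was not tested.

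The 5 CDKN2A transcripts that start at the ARF first exon summed to 25.6, 25.5 and 31.9 TPM with HA-TAZ and to 17.4, 19.6 and 20.9 TPM in control libraries. Every HA-TAZ library was above every control on this measure as deposited and in scaled TPM. The 4 transcripts that start at the p16INK4a first exon summed to 7.27, 9.48 and 9.53 TPM and to 9.16, 8.65 and 7.87 TPM, with overlap as deposited. In scaled TPM they ranged from 8.39 to 10.7 in HA-TAZ and from 7.44 to 7.94 in control libraries, without overlap. By an exact permutation test (two-sided), p was 0.1 for the ARF sums, which is the lowest that 3 against 3 libraries can reach, and 0.8 for the p16INK4a sums as deposited. In both groups the ARF sums exceeded the p16INK4a sums in every library. Per library, the ARF sums were 3.92% to 8.81% of the CDKN2A level and the p16INK4a sums 1.87% to 2.68%. Both leave out the 3 transcripts not in GENCODE release 29 and those that start further downstream. The sums are therefore not the whole level of either product.

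**Figure D3:**
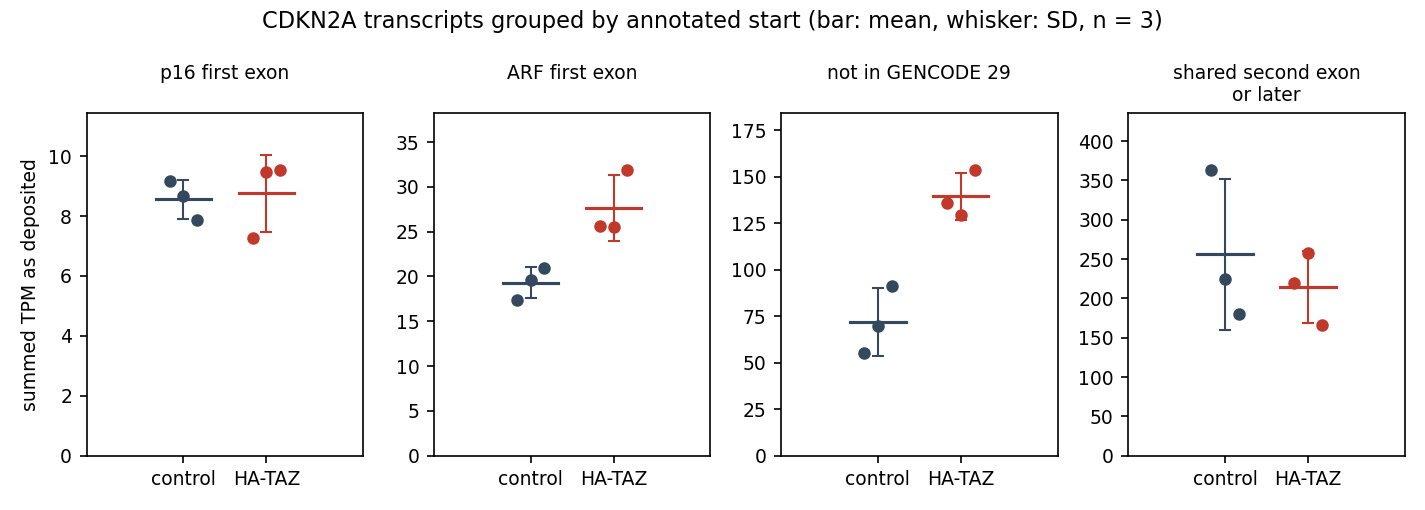
Summed TPM as deposited of CDKN2A transcripts grouped by annotated start, with 1 point per library, the mean and the SD (n = 3). The sums for the ARF first exon and for the 3 transcripts not in GENCODE 29 are higher in HA-TAZ libraries. Those for the p16 first exon and for starts downstream of it overlap. The panel of the latter is titled shared second exon or later, but exon borders were not read.

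CDKN2C (ENSG00000123080, chromosome 1) encodes p18INK4c, the INK4 inhibitor best known for limiting the division of plasma cells. It was at 47.5, 49.3 and 47.3 TPM with HA-TAZ, against 52.6, 55.1 and 49.9 TPM in control libraries. As deposited every HA-TAZ library was below every control, and in scaled TPM every HA-TAZ library (51.03 to 54.9) was above every control (43.5 to 50.5). The log2 fold change of 0.17 did not pass the test (adjusted p by limma = 0.152) and was −0.13 with TPM as deposited (adjusted p by limma = 0.167). The main transcript, ENST00000396148.1, held 64.6% of its level.

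CDKN2D (ENSG00000129355, chromosome 19), which encodes p19INK4d, was at 2.55, 2.55 and 2.52 TPM with HA-TAZ, against 2.50, 3.17 and 2.41 TPM in control libraries. Control b was higher and the other 5 libraries were close together. Its log2 fold change was 0.16 (SE 0.12, adjusted p by limma = 0.404) and −0.055 with TPM as deposited.

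CDK4 and CDK6, the kinases these inhibitors bind, were both abundant. CDK4 (ENSG00000135446, chromosome 12) was at 95.8, 98.7 and 97.2 TPM with HA-TAZ, against 89.1, 96.0 and 92.4 TPM in control libraries, with overlap between HA-TAZ 1 and control b. In scaled TPM it was at 111, 102 and 109 against 73.7, 88.0 and 87.4, without overlap. Its log2 fold change of 0.37 (SE 0.08) lay just outside the threshold (adjusted p by limma = 0.0531), and it passed with a filter at 5 TPM (adjusted p by limma = 0.0357) and with TPM summed per symbol (adjusted p by limma = 0.0470). These were the only 2 of 13 alternatives that called CDK4. With TPM as deposited the log2 fold change was 0.07, and with a factor from protein-coding genes it was 0.29 (adjusted p by limma = 0.0705). It was called in 0 of the 6 fits that left out a library (limma, adjusted p from 0.0659 to 0.155). CDK4 overlaps TSPAN31 and MARCH9 on the opposite strand, at means of 16.6 and 13.02 TPM, so its value is uncertain to that extent.

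CDK6 (ENSG00000105810, chromosome 7) was at 49.996, 57.3 and 52.2 TPM with HA-TAZ, against 60.8, 52.3 and 52.1 TPM in control libraries. As deposited the groups overlapped, with control a the highest library. In scaled TPM the values were 57.8, 59.3 and 58.7 against 50.3, 47.9 and 49.3, without overlap and with a narrow spread in each group. The log2 fold change was 0.25 ± 0.04 (SE, adjusted p by limma = 0.0313). It was −0.048 with TPM as deposited (adjusted p by limma = 0.695) and 0.17 with a factor from protein-coding genes (adjusted p by limma = 0.0701), and it was not called in any of the 6 fits that left out a library (limma, adjusted p from 0.0617 to 0.108). The mRNA ENST00000265734.4 (11612 bases in GENCODE release 29) held 87.0% of the CDK6 level.

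**Figure D4:**
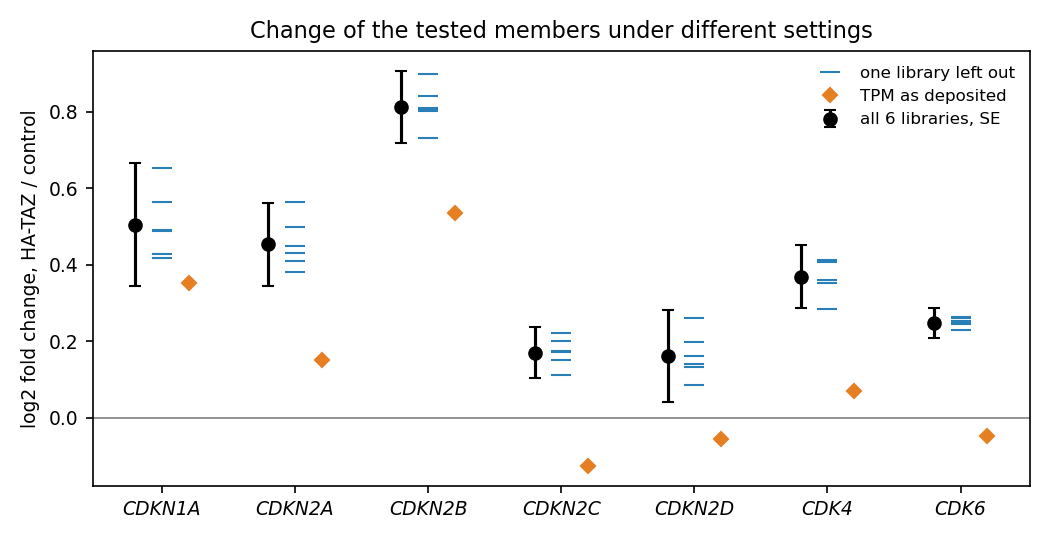
Log2 fold change (HA-TAZ over control, log2 of scaled TPM plus 1) of the 7 tested members, with the standard error from all 6 libraries, the 6 values with 1 library left out, and the value with TPM as deposited. All 7 are above 0 after scaling, and CDKN2C, CDKN2D and CDK6 are below 0 with TPM as deposited.

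CDKN1A (ENSG00000124762, chromosome 6) encodes p21, a Cip/Kip inhibitor known to rise in cell cycle arrest. It was at 1.43, 1.56 and 1.23 TPM with HA-TAZ, against 0.761, 0.651 and 1.28 TPM in control libraries. Control c was at the level of the HA-TAZ libraries as deposited, and the groups overlapped. In scaled TPM the range was 1.38 to 1.65 against 0.597 to 1.21, without overlap. The log2 fold change of 0.51 (SE 0.16) did not pass the test (adjusted p by limma = 0.103), and it was 0.91 at a pseudocount of 0.1 (adjusted p by limma = 0.121). None of its 7 transcripts reached a mean of 1 TPM.

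CDKN1C (ENSG00000129757, chromosome 11) encodes p57, a Cip/Kip inhibitor from an imprinted region. It was at 0.828, 0.510 and 0.684 TPM with HA-TAZ, against 0.493, 0.367 and 0.203 TPM in control libraries. Every HA-TAZ library was above every control on both scales, though HA-TAZ 2 and control a lay close together as deposited. An exact permutation test (two-sided) reached its lowest possible p of 0.1, and the fit without a filter on level did not call it (log2 fold change 0.41, adjusted p by limma = 0.157). Estimated counts in the authors' deposited table summed to 28.02 per library over its transcripts with statistics, so the level rests on few reads.

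CDKN1B (ENSG00000111276, chromosome 12), which encodes p27, was listed at 0 TPM in all 6 libraries for each of its 4 transcripts, and the authors' deposited table gave no statistics for any of them. RB1 (ENSG00000139687, chromosome 13), the gene of the retinoblastoma protein, was at 0.426, 0.181 and 0.469 TPM with HA-TAZ, against 0.480, 0.214 and 0.296 TPM in control libraries, with overlap. Its full-length mRNA ENST00000267163.4 was listed at 0.00922 to 0.0192 TPM in HA-TAZ and 0.00573 to 0.00790 TPM in control libraries, and 3 of its 6 transcripts were listed at 0 everywhere. Most of the remaining RB1 level came from ENST00000525036.1, a model with a retained intron, at 0.147 to 0.219 TPM, and from ENST00000467505.1 at 0 to 0.327 TPM. For comparison, the RB1 paralogues were expressed, RBL1 (p107, ENSG00000080839) at 9.06 to 12.6 TPM with HA-TAZ against 16.3 to 17.99 TPM, and RBL2 (p130) at 22.3 to 26.7 TPM against 32.3 to 36.5 TPM. Both were lower in HA-TAZ libraries without overlap on both scales and neither passed the test (adjusted p by limma = 0.119 and 0.0600).

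After these values were seen, the protein-coding genes on either side of the members were read in GENCODE order, 10 on each side. Beside CDKN1B, the nearest genes GPR19 and APOLD1 had means of 0.0190 and 0.193 TPM over the 6 libraries. The next genes outwards, CREBL2 and DDX47, were at 3.01 and 17.0 TPM. Beside RB1, ITM2B on one side was at 43.8 TPM. On the other side LPAR6, which lies within RB1 on the opposite strand, was at 0.411 TPM, RCBTB2 at 1.09 TPM, CYSLTR2 was listed at 0, and FNDC3A was at 26.5 TPM. Of the 20 neighbours, 8 were under 1 TPM for CDKN1B and 6 for RB1, against 39.8% of all protein-coding genes in the files. For CDKN2A and for CDKN2B it was 12 of 20, interferon genes among them.

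**Figure D5:**
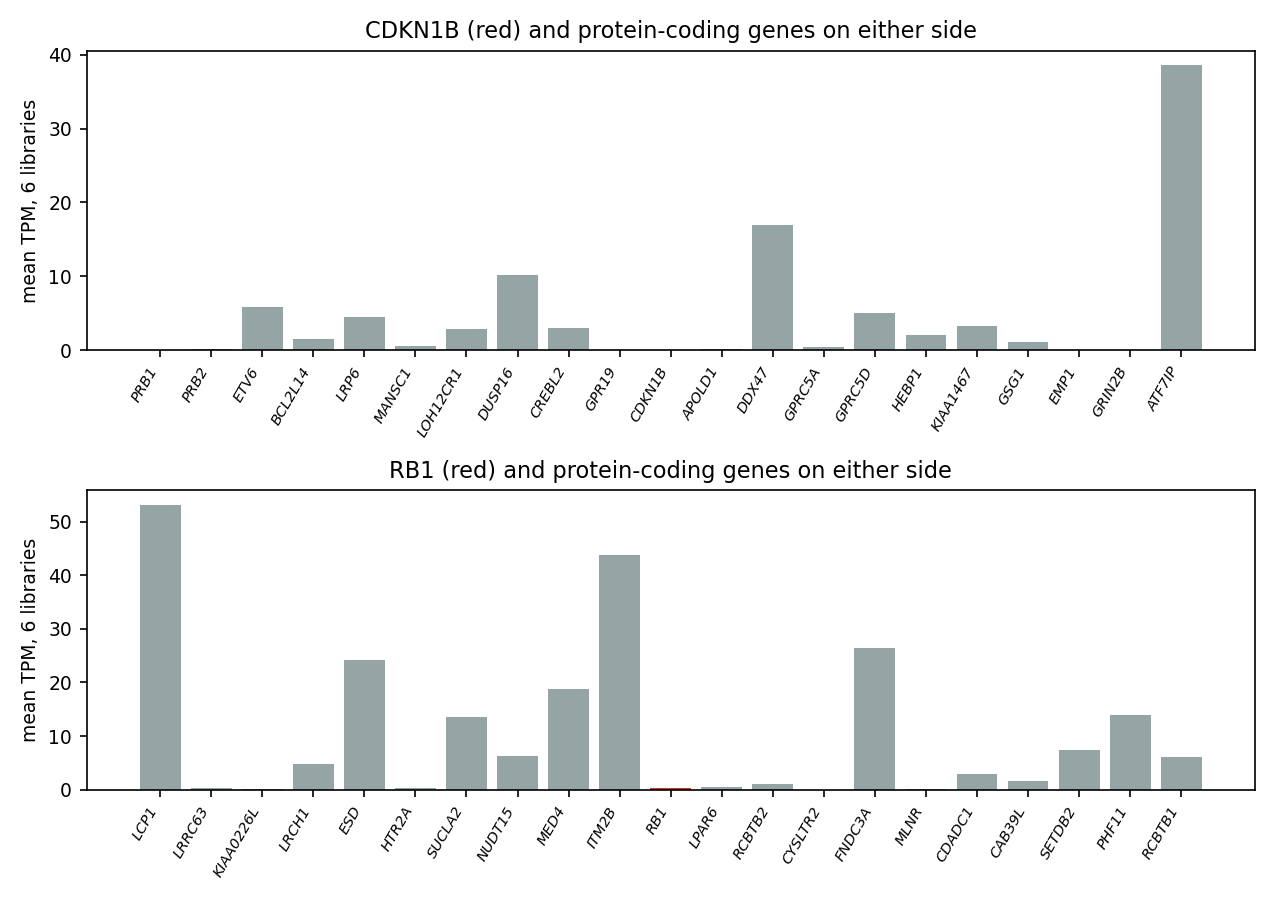
Mean TPM as deposited over the 6 libraries (linear axis from 0) of CDKN1B and RB1 and of 10 protein-coding genes on each side, in the order of GENCODE 29 on GRCh38. CDKN1B is at 0 between GPR19 (0.0190) and APOLD1 (0.193), and RB1 (0.344) lies between ITM2B (43.8) and LPAR6 (0.411).

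In the authors' deposited table, 48 of the 70 member transcripts had statistics, and 10 had a q-value under 0.05, all 10 with a positive effect. Over all transcripts of the authors' deposited table with statistics, 4.08% had such a q-value and a positive effect. The 10 were 4 of CDKN2A, 3 of CDKN2B, 2 of CDK6 and 1 of CDK4. For the CDKN2B transcript ENST00000276925.6 the authors' deposited table lists an effect of 0.718 ± 0.0717 (SE, natural log), q-value 1.80e-20. For CDK6, the authors' deposited table gave effects of 0.170 for ENST00000265734.4 (q-value 0.00660) and 0.615 for ENST00000424848.2 (q-value 0.0142). For CDK4 the transcript was ENST00000312990.6, for which the authors' deposited table lists 0.349 (q-value 0.00155). The estimated counts implied by the authors' deposited table were 36169 for CDK6, 13844 for CDKN2A, 5785 for CDK4, 5457 for CDKN2C and 1693 for CDKN2B per library. They were 166 for CDKN2D, 59.1 for CDKN1A and 16.6 for RB1. The order by counts differs from that by TPM because TPM divides by transcript length.

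The other genes of the pathway were read from lists of textbook members of each group. Of 14 cyclins and partner kinases, 12 were tested, and 3 were called higher and 0 lower by limma. Of all tested genes, 4.67% were called higher and 2.63% lower. The list had a median log2 fold change of 0.04, against −0.03 over all genes. At an unadjusted p under 0.05 there were 5 higher and 1 lower of 13 gene IDs, against 16.6% and 14.1% of all genes. CDK7 has 2 gene IDs in the files, counted once in each direction (log2 fold changes 0.68 for ENSG00000134058 and −0.69 for ENSG00000262841). Summed over both, CDK7 was at means of 21.02 TPM with HA-TAZ and 21.3 TPM in controls (log2 fold change 0.26, adjusted p by limma = 0.149), so the values of its single IDs are uncertain. The 3 called were CCNB1, a mitotic cyclin (0.27), CDC25A, a phosphatase that activates CDK2 (0.37), and CDC37, a chaperone that loads CDK4 and other kinases (0.38, all log2 fold changes), though CCNB1 overlapped between groups as deposited, at 56.0, 62.6 and 55.2 against 62.0, 57.3 and 57.4 TPM.

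The D cyclins are the partners of CDK4 and CDK6. CCND3 was the main one, at 8.91, 11.1 and 11.4 TPM in HA-TAZ and 13.04, 12.1 and 12.4 TPM in control libraries, lower without overlap as deposited and overlapping in scaled TPM (log2 fold change 0.04, adjusted p by limma = 0.811). CCND2 was at 0.528, 0.432 and 0.381 TPM in HA-TAZ and 0.0704, 0.0526 and 0.121 TPM in control libraries, without overlap and below the filter on level. The fit without that filter called CCND2 higher (log2 fold change 0.48, adjusted p by limma = 0.0362), where 500 of 47371 genes were called higher. CCND2 was below 1 TPM in each library, so this call rests on a low level. CCND1 was at 0.178, 0.269 and 0.481 TPM against 0.169, 0.116 and 0.0623 TPM, and was not called in that fit (adjusted p by limma = 0.214).

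Of 17 pocket proteins, E2F and DP factors and core subunits of the DREAM complex, all 17 were tested. E2F4, an E2F factor that acts with p107 and p130, was called higher (log2 fold change 0.29, adjusted p by limma = 0.0345) and 0 were called lower, a share of 1 in 17 beside 4.67% of all genes. At an unadjusted p under 0.05 there were 7 higher and 2 lower, against 16.6% and 14.1% of all genes. The list's median was 0.14 on the log2 scale. E2F4 overlapped between groups as deposited, at 46.2, 49.1 and 46.8 against 49.01, 47.2 and 46.6 TPM. E2F1 had a log2 fold change of 0.36 and did not pass (adjusted p by limma = 0.0678).

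Of 15 regulators of the inhibitors, all were tested, 0 were called higher and SKP2 was called lower, with a median log2 fold change of 0.06 over the list. Of all tested genes, 4.67% were called higher and 2.63% lower. SKP2, the F-box protein through which p27 is ubiquitinated, was at 14.3, 16.7 and 14.1 TPM in HA-TAZ and 24.3, 24.02 and 21.8 TPM in control libraries, without overlap. It fell by 0.32 on the log2 scale (adjusted p by limma = 0.0416), and its groups did not overlap in scaled TPM either. At an unadjusted p under 0.05 this list had 3 higher and 2 lower of 17 gene IDs, against 16.6% and 14.1% of all genes. Of 20 S phase genes regulated by E2F, 0 were called in either direction by limma, and the median was 0.06. At an unadjusted p under 0.05, 7 of the 20 were higher and 1 lower, against 16.6% and 14.1% of all genes. Of 18 genes next to or overlapping the members, 12 were tested. DMRTA1 was called higher and FAM133B, beside CDK6, called lower (log2 fold change −0.34, adjusted p by limma = 0.0348), against 4.67% and 2.63% of all tested genes. The median of that list was −0.08, with 2 of 12 higher and 3 lower at an unadjusted p under 0.05, against 16.6% and 14.1% of all genes.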

How the data were processed

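Per the labels' protocols, stranded libraries were made from total RNA after DNase digestion and removal of ribosomal RNA, and read from both ends (100 bases). The submitters' processing notes name kallisto 0.46.0, sleuth 0.30.0 and GRCh37. The annotation release and whether strand was used are not given in the sources used here. The authors deposited TPM per transcript, each library summing to 1000000, so depth per library is unknown and precision was read from the spread of 3 libraries. The authors' deposited table holds, per the file headers, p-values and q-values and a natural log effect from a Wald test, with mean natural log estimated counts.

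TPM was summed per Ensembl gene ID, divided by a median-of-ratios factor over 21512 genes, filtered at a mean TPM of 1 and tested with limma 3.58.1 (R 4.3.3, intensity trend, two-sided) on log2(scaled TPM + 1), with Benjamini-Hochberg adjustment over all genes or transcripts. A fold change on this scale understates changes of low genes. The fit was also run on simulated data in which few genes changed, which cannot decide the choice of scaling for these data. Tables used pandas 2.3.3 and numpy 2.4.6 in Python 3.11.15, and figures matplotlib 3.10.9. Members and lists were chosen with earlier results of these data known. The text names all members, every called gene of each list, and selected partners (D cyclins, RBL1, RBL2, E2F1, SKP2, MTAP and overlapping genes). Alternatives were another pseudocount, filter, scaling, prior and summing, and leaving out each library. GENCODE release 29 gave gene types (82.5% of IDs), order and starts.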

Additional observations from a re-analysis of the deposited data

How the results depend on the processing

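CDKN2B was higher in HA-TAZ libraries under each of the 13 alternatives run and called in 8 of them, with log2 fold changes from 0.54 to 0.90 and adjusted p from 0.00977 to 0.0692 (limma). CDK6 was called in 4 of 13, with adjusted p from 0.0220 to 0.695. With TPM as deposited, which lowers the median of all genes to −0.27, the log2 fold change became −0.048 for CDK6, −0.13 for CDKN2C and −0.055 for CDKN2D. The 2 called of 7 tested members (1652 of 22651 over all genes) became 4 of 5 with a filter at 5 TPM (2240 of 12613). Of the 7, 1 was called with TPM as deposited (3329 of 22651 over all genes). It was also 1 of 7 with a factor from protein-coding genes (1519 of 22651) and 1 of 7 without trend (758 of 22651). With any 1 of the 6 libraries left out, 0 to 1 of the 7 members were called (4 to 5 at an unadjusted p under 0.05). Over all 22270 to 22999 genes tested in those fits, 118 to 470 were called (5097 to 6492 at an unadjusted p under 0.05). Of 35 member transcripts tested, 2 were called (307 of 57448 over all transcripts). Without a filter on level it was 0 of 59, and 23 at an unadjusted p under 0.05 (108 and 21391 of 162568). With a filter at 5 TPM it was 4 of 17 (1655 of 16904). With TPM as deposited it was 0 of 35, and 9 at an unadjusted p under 0.05 (120 and 17762 of 57448). It was 1 of 35 with a factor from protein-coding genes (217 of 57448) and 1 of 35 without trend (156 of 57448). In each of the 6 fits that left out a library 0 were called, and 12 to 15 of 33 to 35 had an unadjusted p under 0.05. Over all 55992 to 58470 transcripts in those fits, 12 to 114 were called and 9917 to 13767 had an unadjusted p under 0.05.

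Of all genes, 1652 called became 691 without a filter on level, 2240 with a filter at 5 TPM, 3329 with TPM as deposited and 758 without trend. With 1 library left out, they became 118 (without HA-TAZ 1) to 470 (without control c). Of all transcripts, 307 called became 108 without a filter on level, 1655 with a filter at 5 TPM, 120 with TPM as deposited and 156 without trend, and 12 to 114 with one library left out. The fits that left out a library had fewer samples, and no filter meant more features tested. The cause of the other moves was not tested. In the authors' deposited table, 10 member transcripts had a q-value under 0.05 and 7 under 0.01. No paired analysis was possible because control columns carry a prefix found in no label, so their numbers cannot be matched to samples. The values of CDKN1A, CDKN1C and RB1 rest on few estimated counts, which limits how well their levels are known.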

Other observations

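Ratios of members within a library do not depend on the scaling between libraries. CDKN2B over the sum of CDK4 and CDK6 was 0.0937, 0.102 and 0.0989 in HA-TAZ and 0.0706, 0.0573 and 0.0738 in control libraries, higher in HA-TAZ without overlap. CDK6 over CDK4 was 0.522, 0.581 and 0.537 against 0.682, 0.545 and 0.564, with overlap. The sum of CDKN2B, CDKN2C and CDKN2D over the sum of CDK4 and CDK6 was 0.432 to 0.437 in HA-TAZ and 0.436 to 0.450 in control libraries, with overlap. With CDKN2A added, the ratio was 2.85 to 3.14 against 2.51 to 3.403, with overlap. These ratios were chosen after the values of the members were seen.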
